A study of Rattus norvegicus with 13 samples.

Results

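In the frontal cortex of rats, 1 month after a head trauma, 9 genes of the fibrous extracellular matrix were followed: Col1a1, Col1a2, Col3a1, Fn1, Bgn, Dcn, Fmod, Lum and Ogn. They were chosen by name as matrix genes of fibroblasts and meninges, and all 9 were among the 17245 genes tested. The file's gene name matched these symbols for 12 of 30367 probes, since Col1a1, Fn1 and Bgn each had a pair of probes. The 13 samples were total RNA of male Sprague–Dawley rats, 1 array each. Rotational trauma, a rapid angular acceleration of the head, had 3 samples and its own sham group had 3. Percussion trauma, a lateral fluid percussion in which a pressure pulse strikes the dura through an opened skull, had 3 samples and its own sham group had 4. Sham rats had the anaesthesia and the surgery but no trauma. Age is not given in the sources used here. The labels number the samples as replicates, and the p-values rest on how much those samples varied.

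Fibrillar collagens are secreted as chains that wind into triple helices and pack into load-bearing fibrils. Fibronectin is a glycoprotein that links these fibrils to integrins on the cell surface. The small leucine-rich proteoglycans biglycan, decorin, fibromodulin, lumican and osteoglycin bind collagen and govern how fibrils assemble. In the brain such genes are known mainly from fibroblasts of the meninges and of the sheaths around larger vessels, and little from neurons or glia.

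Each array reads a member through an oligonucleotide of 60 bases. The first 30 bases of the probe used for each member are shown, in the order collagens, fibronectin and proteoglycans, because every value below is the signal of these oligonucleotides.
Col1a1: gtgggaggaagcaagagactctgtacctat
Col1a2: ggccctgtctgtttcaaataagtgaactca
Col3a1: catgagactccccatcatagatatcgcacc
Fn1: tatctttctcttacctgttatttatcaatt
Bgn: gcaggagggagtgctgcttatgaggtcagt
Dcn: gcctgaaaggaatgtctaatttgtctaagc
Fmod: aagggtcctcagcaagaagcaagcatgagt
Lum: cttctctgaaaggccttaagtcactcgaat
Ogn: aattatagtaactttatctcactgtatcat
The G and C content of the full probes ran from 25% for Fn1 to 45% for Col3a1, Bgn, Fmod and Lum. Brightness differs between oligonucleotides for reasons other than the amount of RNA, so levels are compared between samples and never between members.

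A level is the log2 of the processed signal minus the 75th percentile of its array, so 0 is the upper quartile of that array. All 9 members had a higher mean in trauma than in the sham of the same model, in both models. Of all genes, 38.1% had a higher mean after rotational trauma and 56.9% after percussion trauma. The median log2 difference of the members was 0.88 in the rotational model (range 0.30 to 2.07) and 1.30 in the percussion model (range 0.83 to 1.82). The median of all genes was −0.034 and 0.026 in the same models. No member passed limma's test at an adjusted p under 0.05 over all genes (0 of 9 in each model), where the background was 0.0116% after rotational trauma (2 genes) and 0% after percussion trauma. At an unadjusted p under 0.05, 4 of 9 members were higher after rotational trauma (background 2.7%) and 9 of 9 after percussion trauma (background 8.69%). One of the 9, Lum, was well above background on all arrays of percussion trauma alone, and passed the filter on dim probes through that group. Over the other 8 members the medians were 0.87 and 1.22, and 4 of 8 and 8 of 8 had an unadjusted p under 0.05. The members and the comparison were chosen with earlier results of these data known, so these counts are a description.

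**Figure D1:**
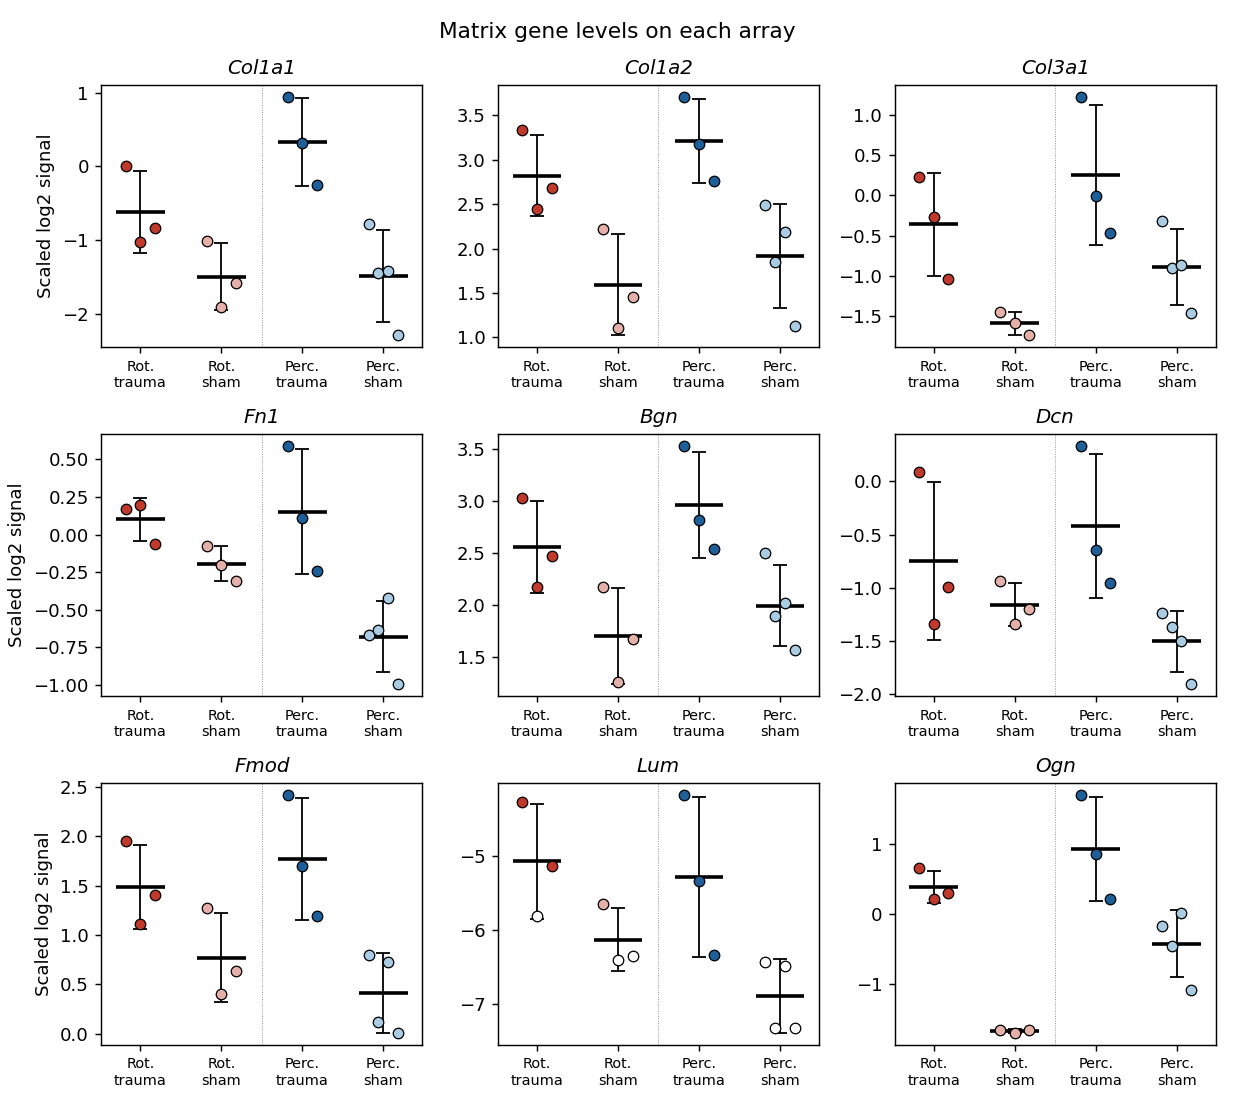
Scaled log2 signal (vertical axis) of each of the 9 matrix genes on every array, by group, with the mean and SD as black bars. Open points are arrays where the probe was not well above background, which occurred for Lum alone. Trauma lay above every sham array of its own model for Col1a2, Fn1 and Ogn in both models.

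Col1a1 encodes the alpha 1 chain of type I collagen. Its probe lies on chromosome 10 from 83639260 to 83639319 on the rn4 build, the build of the array files. After rotational trauma the 3 arrays read 0.011, −1.03 and −0.84, against −1.01, −1.91 and −1.58 in rotational sham. The highest sham array lay just above the lowest trauma array, so these groups overlapped. After percussion trauma the arrays read 0.94, 0.32 and −0.25, against −0.78, −1.45, −1.43 and −2.29 in percussion sham, with no overlap. The log2 difference was 0.88 in the rotational model (SE 0.42, adjusted p = 0.723) and 1.82 in the percussion model (SE 0.39, adjusted p = 0.200), which is 3.54-fold for percussion trauma. A further Col1a1 probe, on chromosome 10 from 83637956 to 83638015, gave smaller differences of 0.63 and 1.08 in the same models.

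Col1a2 encodes the alpha 2 chain that pairs with Col1a1 in type I collagen. It lies on chromosome 4, with the probe from 29428206 to 29428265. The arrays read 3.33, 2.45 and 2.68 after rotational trauma, against 2.22, 1.1 and 1.46 in rotational sham. They read 3.71, 3.17 and 2.76 after percussion trauma, against 2.49, 1.84, 2.18 and 1.13 in percussion sham. The groups did not overlap in either model. The differences were alike in size, 1.23 (SE 0.39, adjusted p = 0.548) and 1.30 (SE 0.37, adjusted p = 0.242). These correspond to 2.34-fold and 2.47-fold.

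Col3a1 encodes type III collagen, which is found beside type I in vessel walls and loose connective tissue. Its probe lies on chromosome 9 from 44317465 to 44317524. It read 0.23, −0.27 and −1.04 after rotational trauma, against −1.45, −1.58 and −1.74 in rotational sham. All 3 trauma arrays lay above sham, but they spanned a far wider range than the sham arrays (SD 0.64 in trauma and 0.14 in sham, n = 3 each). After percussion trauma it averaged 0.25 ± 0.87 (SD, n = 3), against −0.89 ± 0.47 (SD, n = 4) in percussion sham, and the lowest trauma array, at −0.46, fell below the highest sham array, at −0.32. The differences were 1.23 (SE 0.43, adjusted p = 0.582) and 1.14 (SE 0.40, adjusted p = 0.321).

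Fn1 encodes fibronectin, which endothelial cells and other cells make as well as fibroblasts. Its probe lies on the minus strand of chromosome 9 from 70702316 to 70702375. It read 0.17, 0.20 and −0.062 after rotational trauma, against −0.076, −0.20 and −0.31 in rotational sham. It read 0.59, 0.11 and −0.24 after percussion trauma, against −0.67, −0.63, −0.42 and −0.99 in percussion sham. Fn1 had the smallest difference of the 9 members in both models, 0.30 (SE 0.19, adjusted p = 0.851) and 0.83 (SE 0.18, adjusted p = 0.200), although the groups did not overlap in either. The percussion difference passed without percussion trauma 3 (1.03, adjusted p = 0.045) and with an unfiltered probe set (adjusted p = 0.0187). Percussion trauma 3 was the lowest trauma array, so leaving it out raises the difference. Over all genes, 92 and 2895 genes were called in these settings. In the rotational model the lowest trauma array lay only just above the highest sham array. The other Fn1 probe, from 70745666 to 70745725, was well above background on 0 of 3 rotational trauma arrays, 2 of 3 rotational sham arrays, 2 of 3 percussion trauma arrays and 0 of 4 percussion sham arrays, and gives no value here.

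Among the proteoglycans, Bgn encodes biglycan, which carries chondroitin or dermatan sulfate chains, and its probe lies on chromosome X from 159393349 to 159393408. It read 3.03, 2.17 and 2.47 after rotational trauma, against 2.18, 1.26 and 1.67 in rotational sham. It read 3.53, 2.81 and 2.54 after percussion trauma, against 2.50, 1.89, 2.02 and 1.57 in percussion sham. In the rotational model the lowest trauma array fell just under the highest sham array, so those groups overlapped. The percussion groups did not. The differences were 0.85 (SE 0.33, adjusted p = 0.610) and 0.97 (SE 0.31, adjusted p = 0.284). A further Bgn probe, from 159392152 to 159392211, gave 0.46 and 1.01.

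Dcn encodes decorin, a close relative of biglycan that binds type I collagen and TGF-beta. The files place its probe on chromosome 7 between 35037331 and 35041132, an interval far longer than the oligonucleotide, and it was read from 10 spots per array. It read 0.088, −1.34 and −0.99 after rotational trauma, against −0.94, −1.34 and −1.20 in rotational sham. One trauma array stood apart and the other two lay among the sham arrays. Without rotational trauma 1 the difference of 0.41 (SE 0.38, adjusted p = 0.908) became −0.0050. After percussion trauma it read 0.34, −0.64 and −0.96, against −1.24, −1.37, −1.50 and −1.91 in percussion sham, with no overlap and a difference of 1.08 (SE 0.35, adjusted p = 0.296).

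Fmod encodes fibromodulin and Lum encodes lumican, both of which carry keratan sulfate and bind collagen fibrils. The Fmod probe lies on chromosome 13 from 46998263 to 46998322. Fmod read 1.95, 1.11 and 1.40 after rotational trauma, against 1.27, 0.40 and 0.63 in rotational sham, where the highest sham array exceeded the lowest trauma array. It read 2.42, 1.70 and 1.19 after percussion trauma, against 0.80, 0.12, 0.73 and 0.0086 in percussion sham, where the groups lay apart. Its differences were 0.72 (SE 0.35, adjusted p = 0.731) and 1.36 (SE 0.33, adjusted p = 0.202).

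Lum was dim, and its probe lies on chromosome 7 from 35086409 to 35086468, close to Dcn. It was well above background on 2 of 3 rotational trauma arrays and 1 of 3 rotational sham arrays, and on 3 of 3 percussion trauma arrays and 0 of 4 percussion sham arrays. It read −4.28, −5.81 and −5.14 after rotational trauma, against −5.65, −6.40 and −6.35 in rotational sham, a difference of 1.06 (SE 0.53, adjusted p = 0.736) between overlapping groups. With normexp background correction that difference was 0.19. After percussion trauma it read −4.18, −5.35 and −6.34. Since the percussion sham mean of −6.89 (n = 4) came from arrays that were not well above background, Lum is given there as at least 1.4-fold higher after percussion trauma (adjusted p = 0.273). The bound sets the trauma mean against the lowest signal of any probe well above background on each sham array, or Lum's own signal where that was higher. The fitted percussion difference of 1.60 on the measured signals was 0.74 with normexp and 0.73 in the authors' deposited table.

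Ogn encodes osteoglycin, also called mimecan, a small proteoglycan of connective tissue. Its probe lies on the minus strand of chromosome 17 from 20987215 to 20987274. It read 0.66, 0.22 and 0.30 after rotational trauma, against −1.66, −1.71 and −1.67 in rotational sham. The lowest trauma array stood far above the sham arrays, whose SD was 0.025 (n = 3). After percussion trauma it read 1.72, 0.86 and 0.22, against −0.17, −0.45, 0.018 and −1.09 in percussion sham, again with no overlap. The differences were 2.07 (SE 0.34, adjusted p = 0.151) and 1.36 (SE 0.32, adjusted p = 0.202), and the rotational one was the largest of any member in either model, at 4.20-fold. It passed when limma was fitted to the rotational arrays alone (adjusted p = 0.0292), with an unfiltered probe set (0.0183) or without percussion trauma 1 (0.0417). The adjusted p of this difference ranged from 0.0183 to 0.404 over the 23 alternatives. For rotational trauma 334 genes were called with the unfiltered set, and 0 to 12 when 1 array was left out. The percussion difference of Ogn was 1.71 and passed without percussion trauma 3, its lowest trauma array (adjusted p = 0.045), where 92 genes were called.

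Trauma and sham arrays did not overlap for 4 of 9 members in the rotational model (Col1a2, Col3a1, Fn1 and Ogn), where 4.52% of all genes were higher without overlap. They did not overlap for 8 of 9 in the percussion model (all but Col3a1), where the background was 6.94%. Without Lum, whose percussion sham arrays were not well above background, these counts were 4 of 8 and 7 of 8. Col1a2, Fn1 and Ogn were free of overlap in both models, as were 0.597% of all genes. None was lower without overlap (0 of 9 in each model, where the background was 11.3% after rotational and 3.06% after percussion trauma). Leaving out an array cannot make groups overlap, so it can only keep or raise these counts. The rotational count was 8 of 9 without rotational sham 1, and also 8 of 9 without rotational trauma 2. The percussion count was 8 or 9 whichever array was left out. It was 7 with quantile normalization or with the mean of all probes of a gene, and 6 in the deposited table. The share of all genes was not counted under these alternatives, so the backgrounds above do not apply to them.

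**Figure D2:**
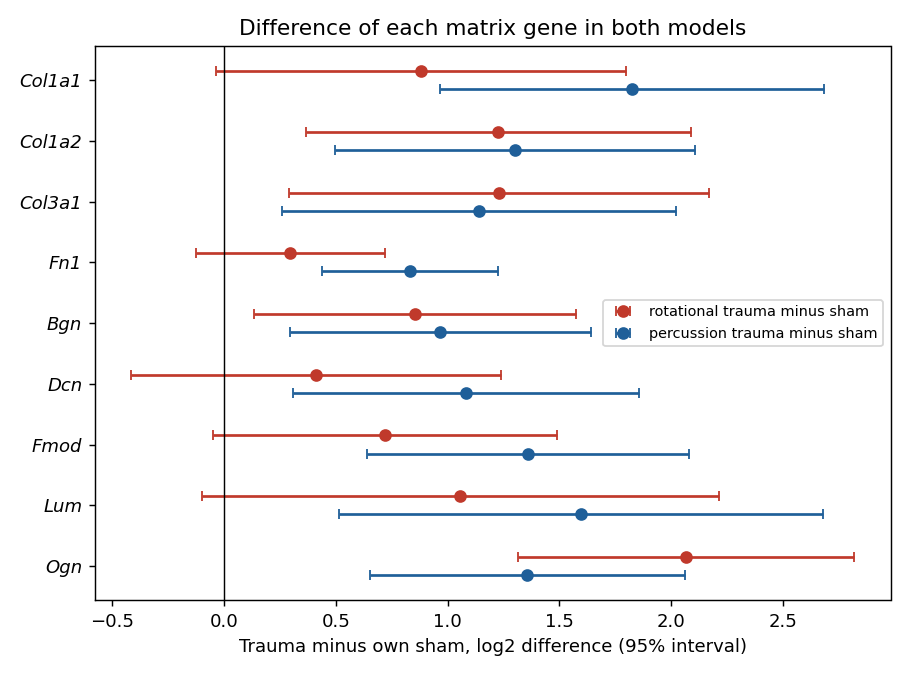
Log2 difference of trauma minus its own sham (horizontal axis) for the 9 matrix genes in the rotational and the percussion model, with 95% intervals from limma. The percussion intervals of all 9 members lie above 0, that of Lum being set against sham arrays not well above background. The rotational intervals of Col1a1, Fn1, Dcn, Fmod and Lum include 0.

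Averaged over both models, the member differences ran from 0.56 for Fn1 to 1.71 for Ogn (SE 0.23, adjusted p = 0.179), with Col1a1 at 1.35, Col1a2 at 1.26 and Col3a1 at 1.19. Fmod averaged 1.04, Bgn 0.91 and Dcn 0.75. For Lum no average is given, since its percussion difference is only a bound. No member passed for this mean (0 of 9, background 0%), and 9 of 9 had an unadjusted p under 0.05 with a higher value, where the background was 5.36% (8 of 8 without Lum). Leaving out 1 array gave 0 to 19 genes called for this mean. Ogn passed for it without rotational trauma 2 (adjusted p = 0.0410) and without percussion trauma 3 (adjusted p = 0.0288), each the lowest Ogn array of its group. The other 8 members had a positive mean difference under all 22 alternatives that gave one.

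Whether the 2 models differed was tested as the rotational difference minus the percussion difference. This was −0.94 for Col1a1 (95% interval −2.20 to 0.31, adjusted p = 0.667) and −0.54 for Fn1 (−1.11 to 0.043, adjusted p = 0.576). It was 0.71 for Ogn (−0.32 to 1.74, adjusted p = 0.696), the member that leaned most to the rotational side. For Col1a2 it was −0.074 (−1.26 to 1.11) and for Col3a1 0.089 (−1.20 to 1.38). The value was below 0 for 7 of 9 members (6 of 8 without Lum), as for 62% of all genes, and none passed (0 of 9, background 0%). At an unadjusted p under 0.05, 0 of 9 were above 0 (background 1.55%) and 0 of 9 below 0 (background 7.69%). Each interval given here includes 0, and with this number of arrays the intervals are wide, so a difference between the models is not excluded.

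Across the 4 groups, percussion trauma had the highest mean for 8 members, and rotational trauma for Lum. Rotational trauma came next for the other 8. The lowest mean was in rotational sham for Col1a1, Col1a2, Col3a1, Bgn and Ogn, and in percussion sham for Fn1, Dcn and Fmod. Neighbours in this order mostly overlapped in range. The ranges of neighbouring groups stood apart for Fn1 (rotational trauma above rotational sham, and rotational sham above percussion sham) and for Ogn (rotational trauma above percussion sham, and percussion sham above rotational sham). The order of the sham groups for Lum is that of signals mostly not well above background and is not read. Each model had its own slide, so levels across models also carry the slide.

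The members varied together between samples of a group. Percussion trauma 1 was the highest array of its group for 9 of 9 members and percussion trauma 3 the lowest for 9 of 9. Percussion sham 4 was the lowest for 9 of 9, rotational sham 1 the highest for 9 of 9, rotational trauma 1 the highest for 8 of 9 and percussion sham 1 the highest for 7 of 9, so replicate 1 was the most frequent highest array in all 4 groups. After subtraction of each group's mean, the 36 pairs of members correlated across the 13 arrays at Pearson r between 0.63 and 0.97 (median 0.83). The points of such a correlation share the scaling of their array. Fn1 followed the others least (r = 0.78 with the mean of the other 8) and Fmod most (r = 0.96). Of the 17230 other genes, 68 had r above 0.9 with the mean of the members, and the median r was 0.019.

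The 6 genes most like the members by this measure were Pcolce (r = 0.98), Anxa2 (0.97), Igfbp2 (0.97), Slc22a6 (0.96), Igf2 (0.96) and Ppic (0.96), over 13 arrays. Pcolce encodes an enhancer of the enzyme that trims procollagen, and it differed by 1.06 after rotational trauma and 1.06 after percussion trauma. Igf2 encodes a growth factor of the meninges and choroid plexus, and differed by 1.31 and 1.72. None of the 6 passed in either model.

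Other genes of collagen production and of the matrix were taken from lists. Of 24 genes for collagen biosynthesis and crosslinking, 20 were measured, and their median difference was 0.12 after rotational and 0.18 after percussion trauma. At an unadjusted p under 0.05, 4 were higher and 0 lower after rotational trauma, and 8 were higher and 1 lower after percussion trauma. Of all genes, 2.7% were higher at this threshold after rotational trauma and 8.69% after percussion trauma. Those lower were 740 and 493 of 17245 genes in the same models. Serpinh1, the collagen chaperone HSP47, differed by 0.48 and 0.43, and Fkbp10, a chaperone of the same pathway, by 0.29 and 0.63. The 8 minor fibrillar and fibril-associated collagens had medians of 0.21 and 0.16, with 1 higher at an unadjusted p under 0.05 after rotational trauma and 0 after percussion trauma. Col12a1 (0.65 and 0.33) was the highest there after rotational trauma and Col14a1 (0.43 and 0.39) after percussion trauma. Both are collagens that coat fibrils, and Col16a1 gave 0.25 and 0.22. Of the 8, 2 had a lower mean after rotational trauma (lowest −0.50) and 3 after percussion trauma (lowest −0.29). Both medians of these 8 genes lay well under those of the major chains Col1a1, Col1a2 and Col3a1 (1.23 and 1.30).

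Of 11 other small leucine-rich proteoglycans, 6 were measured, with medians of 0.40 and 0.46. At an unadjusted p under 0.05, 3 were higher in each model (background 2.7% after rotational and 8.69% after percussion trauma). Omd, which encodes osteomodulin, differed by 1.1 and 1.15. Tsku, which encodes tsukushi, differed by 0.62 and 0.57, and Prelp by 0.48 and 0.47. Among 18 measured partners of fibronectin and collagen, all 18 had a higher mean after percussion trauma (background 56.9%) and 14 after rotational trauma (background 38.1%). Their medians were 0.11 after rotational and 0.35 after percussion trauma. Thbs2, which encodes thrombospondin 2, differed by 0.84 and 1.11, the fibulin gene Fbln1 by 0.58 and 1.1, and the integrin gene Itga8 by 0.81 and 0.35. Over all genes tested, 0 genes of these 4 lists passed in any comparison.

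The 15 measured TGF-beta genes had medians of 0.075 and 0.21. Tgfbi, a matrix protein gene named for its induction by TGF-beta, differed by 0.80 and 0.44 and Ccn2, a connective tissue growth factor gene, by 0.66 and 0.21, while the inhibitor gene Smad7 differed by −0.17 in each model. The 10 measured genes of matrix degradation had medians of 0.29 and 0.45. The protease inhibitor gene Timp1 differed by 0.83 and 0.84, the metalloproteinase gene Mmp23 by 0.64 and 0.60, and the collagen-degrading cathepsin gene Ctsk by 0.33 and 0.55. None of the genes on these lists passed. At an unadjusted p under 0.05, 2 and 4 TGF-beta genes and 3 and 7 degradation genes were higher in the 2 models (background 2.7% and 8.69%).

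Other genes listed for meningeal fibroblasts, most of them outside the matrix, had medians near those of the members. The list was chosen with earlier results of these data known, so its counts are a description. Of its 18 genes 15 were measured, and 15 of 15 had a higher mean in trauma in both models (background 38.1% and 56.9%), with medians of 1.02 and 1.16. Their mean level on an array, centred per gene, ran from −0.078 to 0.93 in rotational trauma, against −0.998 to 0.0014 in rotational sham. It ran from 0.096 to 1.28 in percussion trauma, against −1.02 to 0.0068 in percussion sham. The mean of the 9 members ran from 0.097 to 0.93 in rotational trauma, against −0.80 to −0.21 in rotational sham. It ran from 0.18 to 1.50 in percussion trauma, against −1.02 to −0.070 in percussion sham. Among these markers, Aldh1a2, a retinoic acid synthesis gene of the meninges, differed by 1.42 and 1.21, the transcription factor gene Foxc1 by 0.72 and 0.76, and the anion transporter gene Slc22a6 by 1.04 and 1.16. The laminin gene Lama1, a matrix gene of basement membranes, gave 0.38 and 0.53. In deviations from the group mean, the marker mean correlated with the member mean at r = 0.95 (rho 0.93, 13 arrays). Other lists gave like values, with r = 0.93 for the fibronectin partners, 0.91 for mural cells, 0.91 for general fibroblast genes, 0.89 for collagen biosynthesis and 0.81 for endothelium. The r was 0.72 for microglia and macrophages, 0.65 for choroid plexus, 0.22 for astrocytes and −0.82 for cortical neurons.

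**Figure D3:**
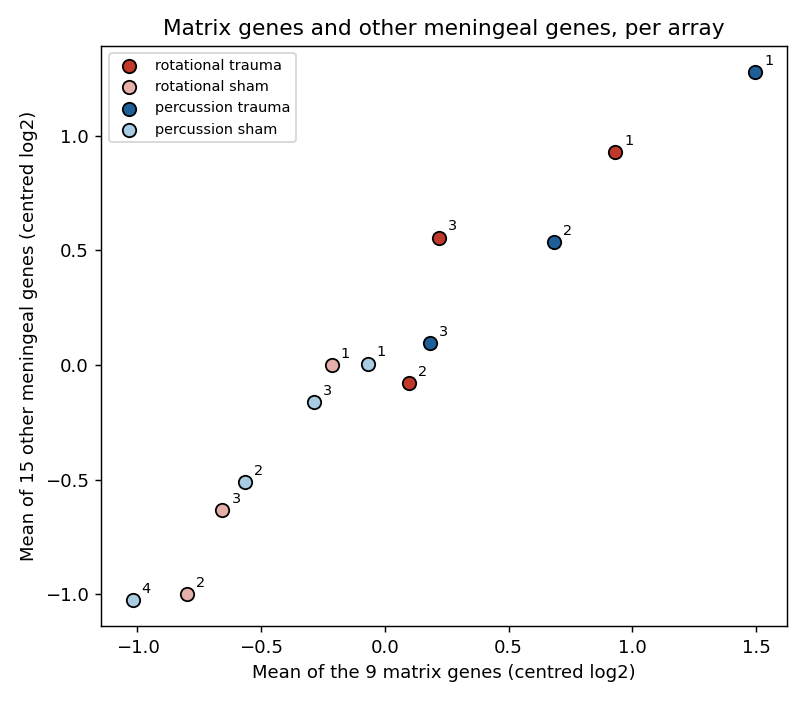
Mean centred log2 level of the 9 matrix genes (horizontal axis) and of 15 other meningeal fibroblast genes (vertical axis) on each of the 13 arrays, coloured by group and numbered by replicate. Percussion trauma 1 is highest and percussion sham 4 lowest on both axes.

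In a piece of cortex, more cells of a type and more RNA per cell cannot be told apart. The part of the amount of meninges in each sample in these differences was not tested. Among markers of other cells, the medians of the 3 measured choroid plexus genes were 1.17 in the rotational and 1.29 in the percussion model, and those of the remaining lists were smaller. In the rotational and the percussion model they were 0.20 and 0.29 for mural cells, 0.052 and 0.17 for endothelium, −0.043 and 0.11 for astrocytes, 0.041 and 0.059 for microglia and macrophages, and −0.10 and 0.019 for cortical neurons. Oligodendrocyte genes gave 0.40 and −0.051, and red blood cell genes −0.34 and −0.41. Single genes of these lists went past their medians. Cd163, a scavenger receptor gene of macrophages, differed by 1.17 and 1.37, and its probe was well above background on only 9 of 13 arrays. Vim, a vimentin gene on the astrocyte list, differed by 0.83 and 1.09. Gfap, the astrocyte filament gene, differed by −0.37 and 0.99. None of these 3 passed in either model. Of the 10 measured microglia and macrophage genes, 4 had a lower mean in trauma in each model. Of the 8 astrocyte genes, 6 had a lower mean after rotational trauma and 3 after percussion trauma. The general fibroblast genes had medians of 0.21 and 0.47. Of these, 12 of 13 had a higher mean after rotational trauma (background 38.1%) and 11 of 13 after percussion trauma (background 56.9%). Dpt, the dermatopontin gene, was an exception in both models (−0.64 and −0.62), and its probe was well above background on only 7 of 13 arrays. Of 9 choroid plexus markers 3 were measured. Ttr differed by 0.91 and 1.29 with a wide spread (SE 1.37 and 1.29). Kcnj13 differed by 1.17 and 1.28 (SE 0.44 and 0.41) and Aqp1 by 1.59 and 1.76 (SE 0.56 and 0.52). The other 6, among them Folr1, Kl and Otx2, were not well above background on all arrays of any group. The neuronal markers Snap25, Slc17a7 and Camk2a were all well above background, as the label of the tissue requires.

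The arrays of a model shared a slide, and the first number of an array's position on it separated trauma from sham, so position and group cannot be told apart within a model. That number was 2 for trauma on the rotational slide and 1 for trauma on the percussion slide, and the members had a higher mean in trauma on both. The share of spots well above background was 67.0% to 72.5% in rotational trauma, against 73.1% to 74.1% in rotational sham. It was 72.7% to 73.8% in percussion trauma, against 67.6% to 69.4% in percussion sham, so it ran opposite ways in the 2 models. With the second position number as a block, an alternative chosen after seeing the data, the rotational median of the members was 0.55 and Dcn differed by −0.027.

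For Col1a2, the RefSeq promoter window of the GRCr8 build holds the letters of a CCAAT box and of a TATA box, shown in capitals because type I collagen promoters are known for these elements. The stretch lies on the plus strand at chr4:33518307-33518406, from −250 to −151 relative to the annotated start.
Col1a2 promoter: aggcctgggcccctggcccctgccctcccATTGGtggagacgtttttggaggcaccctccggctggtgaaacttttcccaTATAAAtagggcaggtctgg
The first capitals are CCAAT read on the opposite strand, and the others are TATAAA from −170 to −165. A TATA box acts much closer to the start of transcription, so these letters are not placed as one relative to this annotated start. Over both strands of the 250 bases before the start, CCAAT occurs in 34% of 33469 promoters and TATAAA in 12.9%, so neither is rare. Windows were at hand for 4 members. CCAAT was also found for Fmod and Lum, and TATAAA for Ogn. A match is a description of letters and not of binding.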

How the data were processed

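Transcripts were measured in 13 rat frontal cortex samples on 1-colour Agilent arrays. Spot values came from Feature Extraction software, version 10.5.1.1, per the file headers. The processed signal that the authors deposited is an intensity, corrected for background within its array and not scaled across arrays. The authors' deposited table holds processed log2 values whose columns share nearly 1 distribution (largest SD of a sorted value 0.00418), by a method not given in the sources used here. Its 13 columns each correlated best with their own array, and it was used as an alternative.

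Of 62976 spots, 4259 controls and the outlier spots were left out, the log2 signal was scaled to the 75th percentile of its array, and spots of a probe were averaged. A probe was kept if some group had it well above background on all of its arrays (20005). A gene took its brightest probe. Gene names and the promoter come from RefSeq tables on GRCr8, and probe coordinates on rn4 from the files. Group means were estimated from the 13 arrays together with limma 3.58.1 in R 4.3.3, with Benjamini-Hochberg adjustment over 17245 genes. The script was checked on simulated data. Members and lists were chosen with earlier results of these data known. The text names all members, and from each pathway list the 3 genes of smallest p for the mean of both models, since none passed. It also names the 6 genes most like the members, and markers chosen after their values were seen. The number of arrays limits the precision. Replicate numbers were compared across groups, and the labels do not say whether they pair the samples.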

Additional observations from a re-analysis of the deposited data

How the results depend on the processing

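The members' median difference stayed positive in both models under all 23 alternatives, between 0.55 and 1.13 for rotational trauma and between 0.97 and 1.53 for percussion trauma. All 9 members were higher in both models after quantile normalization, normexp and in the deposited table. The number of members without overlap ranged from 4 to 8 (rotational) when 1 array was left out, which can only keep or raise it. It was 3 under normexp. In the percussion model it ranged from 6 to 9 over all alternatives. The share of all genes without overlap was not counted under these alternatives.

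The number of genes called over all genes varied. For rotational trauma (2 genes) it was 0 with quantile normalization, 4 with normexp, 6 in the deposited table, 334 with no filter on dim probes, 1 with probes well above background on every array, 6 with the arrays of the model alone, 5 with an intensity trend, 0 with the position block and 0 to 12 when 1 array was left out. For percussion trauma (0 genes) it was 1 in the deposited table, 2895 with no filter and 0 to 92 when 1 array was left out, the 92 without percussion trauma 3. For the mean of both models (0 genes) it was 0 to 19 when 1 array was left out. For the difference between models (0 genes) it was 3765 with no filter, 1 with a trend and 0 to 8 when 1 array was left out. The cause was not tested.

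With the replicate block, 0 genes were called for rotational trauma and 28 for the mean of both, among them Bgn (adjusted p = 0.0450), Col1a1 (0.0398) and Col1a2 (0.0450). Same-numbered samples correlated between −0.023 and 0.28, and the others between −0.24 and 0.23. The highest value belonged to a same-numbered pair, but not every sample correlated best with its own number. Replicate 1 was the most frequent highest array for the members in all 4 groups. Whether same-numbered samples are paired cannot be told from these values. Under this block the difference between models changed sign for Bgn (0.029) and Col1a2 (0.19).

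Other sign changes mostly concerned small fitted values, but not for Lum and Dcn. The fitted difference between models was −0.54 for Lum, and the fitted rotational difference was 0.41 for Dcn. The difference between models became −0.040 for Col3a1 under normexp, −0.29 for Col3a1 with the position block and 0.055 for Lum in the deposited table. When 1 array was left out it ranged from −0.35 to 0.17 for Bgn, −0.33 to 0.24 for Col1a2, −0.27 to 0.57 for Col3a1 and −1.07 to 0.013 for Lum. The rotational difference of Dcn was −0.027 with the position block and ranged from −0.0050 to 0.71 when 1 array was left out. With no filter, where 2895 genes were called, Col1a1, Fmod, Fn1 and Ogn passed for percussion trauma (adjusted p = 0.0178 to 0.0271). Without percussion trauma 3, the lowest array of its group for all 9 members, Fn1 and Ogn passed (adjusted p = 0.045 each) and 92 genes were called. The position block was chosen after seeing the data. Lum was dim, which limits its values: they were 0.19 (rotational) and 0.74 (percussion) under normexp and 0.73 (percussion) in the deposited table.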
